A study of Mus musculus with 17 samples.

Results

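The TGF-beta, activin and BMP signalling genes of the mouse left ventricular apex were examined 3 weeks after transverse aortic constriction (TAC) or Sham surgery. The members were 46 genes chosen by symbol, of which 45 were analysed here out of 21798 genes listed, and Grem1 was not analysed here. They comprised 10 ligands, 4 latency proteins, 4 secreted antagonists and modulators, 12 receptors and coreceptors, 5 signal-transducing SMADs, 6 intracellular inhibitors and 4 targets. TAC narrows the aortic arch with a suture and loads the left ventricle with pressure, whereas Sham mice had surgery without the constriction. All mice were male, of the C57Bl6/J strain, and aged 7 to 8 weeks at surgery. 29P is an orally active RGD mimetic directed at integrin αvβ3, given by gavage at 50 μg/kg in 6 doses that began 1 week after surgery, and Veh mice received saline. Polyadenylated RNA was sequenced from 3 TAC Veh, 6 TAC 29P, 5 Sham Veh and 3 Sham 29P mice, 1 library each. The authors had removed 3 further libraries, among them a TAC Veh library that grouped with Sham libraries in their principal component analysis, so the spread within TAC Veh is that of the libraries kept.

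TGF-beta ligands are secreted in a latent complex with their own propeptide, and latent TGF-beta binding proteins (LTBPs) tether that complex to the matrix until integrins or proteases release it. Active ligands pair type II with type I receptor kinases, which phosphorylate SMAD2 and SMAD3 for TGF-betas and activins or SMAD1 and SMAD5 for BMPs, and SMAD4 joins either pair in the nucleus. In the heart the TGF-beta branch is best known for its role in fibroblast activation and collagen deposition under load, and integrin αvβ3, the receptor that 29P targets, is among the RGD-binding integrins that can hold latent TGF-beta.

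Values are CPM (reads of a gene relative to the library total) divided by a median-of-ratios factor, termed normalised CPM, and differences are log2 fold changes of normalised CPM plus 0.1, which understate the change of low genes. The estimated depth was 14.2 to 23.8 M reads per library, and library 14 (Sham 29P) had the fewest reads and the most genes listed at 0, 3582. Libraries 19 and 20 (Sham Veh) and 18 (TAC 29P) held atrial transcripts, since Sln, Myl7 and Myl4 summed to 906 to 3038 in them and to 0.457 to 5.13 in the other 14 libraries. Mitochondrial-encoded RNA took 29.1 to 40.0% of CPM in Sham and 23.6 to 29.4% in TAC libraries, and the part of this share in the scale of deposited CPM was not tested beyond the totals without these genes. Cardiomyocyte markers were abundant in every library, with 8 markers summing to 35635 or more, and most of them are shared by ventricular and atrial cells.

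In Sham Veh hearts the members spanned a wide range of levels, compared here as normalised CPM per kb of annotated exon. Highest was Id1, an inhibitor of helix-loop-helix transcription factors and a classical BMP target, at 44.9 ± 8.88 (SD, n = 5), followed by the secreted glycoprotein Fstl1 at 33.4 ± 6.69, the endothelial coreceptor Eng at 29.0 ± 5.66 and the latency protein Ltbp4 at 27.4 ± 8.97. These 4 overlapped within their SDs, except that Id1 lay above Eng. Among ligands Tgfb3, at 5.82 ± 1.53, and Bmp6, at 5.78 ± 0.758, lay above Tgfb1 at 3.25 ± 0.675 and Tgfb2 at 2.16 ± 0.330. Gdf15, Inhba, Inhbb, Bmp2 and Mstn were each at 0.623 or lower on this scale. For the receptors, Bmpr1a stood at 13.3 ± 1.64, the TGF-beta type II receptor Tgfbr2 at 7.05 ± 0.330 and the type I receptor Tgfbr1 at 3.68 ± 0.680. The shared partner Smad4, at 9.82 ± 0.715, exceeded Smad5 at 6.65 ± 0.720, and Smad1, Smad2 and Smad3 lay between 2.36 and 2.57.

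The members called higher after TAC in Veh mice were 3 of 10 ligands, 3 of 4 latency proteins, 1 of 4 secreted modulators, 2 of 12 receptors, 1 of 5 SMADs, 2 of 6 intracellular inhibitors and 0 of 4 targets, and differences between these roles were not tested. In Veh mice 12 of the 45 members were higher in TAC than in Sham and 0 were lower, against 4.64% higher and 5.56% lower of the 16174 genes tested (limma, Benjamini-Hochberg adjusted p of 0.05 or less). In 29P mice 12 members were higher and 1 was lower, against 6.04% higher and 5.14% lower of all genes. The median log2 fold change of the members was 0.35 in Veh and 0.32 in 29P mice, beside 0.015 and 0.011 over all genes. Of the 12 members raised in each treatment 8 were raised in both, namely Tgfb2, Gdf15, Ltbp2, Ltbp3, Ltbp4, Fstl1, Tgfbr2 and Acvr1. All 45 members passed the filter on low values, and in bulk tissue fewer cells of a type and less RNA per cell cannot be told apart.

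These counts moved with the scale and with single libraries. On deposited CPM without rescaling 25 members were higher and 0 lower in either treatment, beside 23.6% higher and 1.98% lower of 16218 genes in Veh and 31.5% higher and 1.15% lower in 29P mice, and the median of all genes itself was raised by 0.34 and 0.36. With totals that leave out mitochondrial-encoded and haemoglobin genes that median was still raised by 0.19 in either treatment. With library 2 (TAC Veh) left out, 4 members stayed past the threshold in Veh mice (Fstl1, Gdf15, Ltbp2 and Tgfbr2), and with library 14 (Sham 29P) left out, 4 stayed past it in 29P mice (Bambi, Fstl1, Ltbp2 and Tgfbr2). Higher calls over all 16174 genes fell alongside. They went from 751 to 157 in Veh mice without library 2, and from 977 to 165 in 29P mice without library 14. The animal numbers in the labels fall into 4 separate ranges, which the labels do not call batches. Libraries 1 to 11 form 1 range, which holds every TAC 29P library except 18. Libraries 12 to 14 and libraries 15 and 16 form ranges without TAC 29P mice. Libraries 18, 19 and 20, which hold atrial transcripts, form the last. Ranges and groups are thus partly confounded. For the last range, the fit cannot tell the range from the atrial transcripts, and it adjusts for the other ranges as well. With the ranges fitted as a covariate 12 members were higher in Veh mice, 10 of them shared with the 12 above. Smad1 and Ski left, and Fstl3 and Tgfbi entered. In 29P mice 3 were higher (Fstl1, Gdf15 and Ltbp2), and over all genes 780 were higher in Veh and 163 in 29P mice. Leaving out the 3 libraries that hold atrial transcripts instead gave 12 higher members in 29P mice, beside 1253 of 16174 genes. Over both treatments, 5 members (Ltbp2, Fstl1, Tgfbr2, Acvr1 and Ski) were higher in each of the 9 TAC libraries than in any of the 8 Sham libraries, beside 1.72% of all genes, and 0 members were lower in this way, beside 2.47%. These libraries were also compared by an exact permutation test, adjusted over all genes. Bmp4 (0.49, adjusted p = 0.0156) and Tgfbi (0.60, adjusted p = 0.0195) passed upwards and Ltbp1 (−0.31, adjusted p = 0.0434) downwards. None of these was called within a treatment with all libraries. Smad1 (0.37, adjusted p = 0.00479) and Tgfb1 (0.78, adjusted p = 0.00225) were among the others that passed upwards. The share of all genes past this test was not counted.

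**Figure D1:**
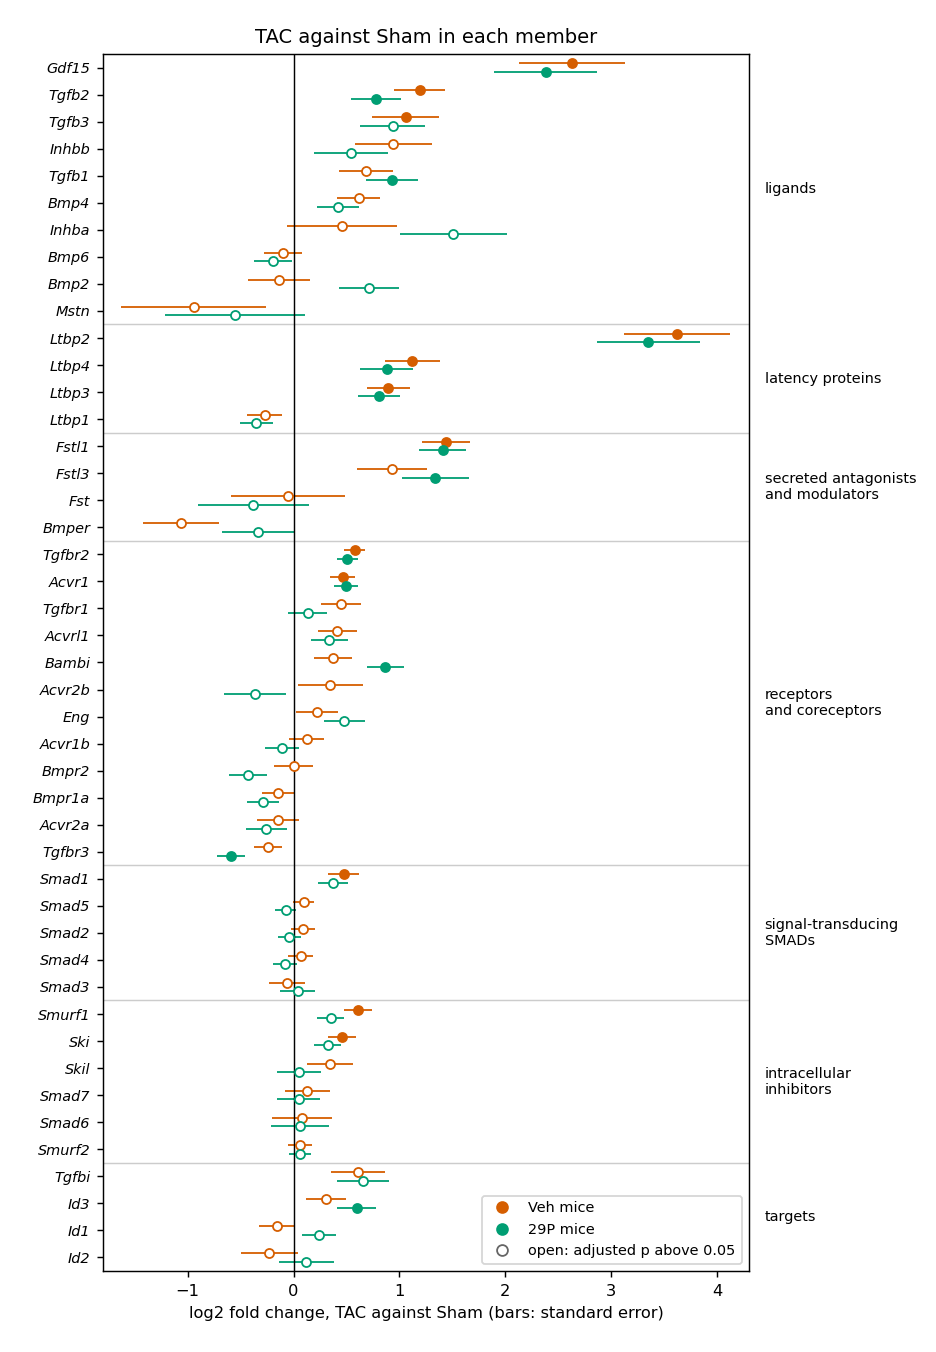
Log2 fold change of TAC against Sham for the 45 members, grouped by role, in Veh mice (orange) and 29P mice (green), with bars for the standard error; filled points have an adjusted p of 0.05 or less. Ltbp2 (3.62 and 3.35) and Gdf15 (2.63 and 2.38) lie farthest to the right, while Smad2, Smad3, Smad4 and Smad5 lie near 0.

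Among the latency proteins Ltbp2 showed the largest change of any member. It encodes a microfibril-associated LTBP that, unlike its relatives, does not bind latent TGF-beta, and it lies on chromosome 12 from 84783212 to 84876532 of mm10 on the minus strand. Its normalised CPM was 2.85, 4.79, 2.88, 5.23 and 7.24 in the Sham Veh libraries, 3.97, 2.01 and 2.49 in Sham 29P, and 83.6, 31.7 and 59.6 in TAC Veh. In TAC 29P it ranged from 10.3 to 73.7 with a median of 32.6. No TAC library overlapped a Sham library.
The log2 fold change was 3.62 in Veh (SE 0.50, adjusted p = 0.00054) and 3.35 in 29P mice (SE 0.49, adjusted p = 0.00128), 12.3-fold and 10.2-fold. In the exact permutation test each reached the smallest p that 56 and 84 splits allow, 0.0179 and 0.0119. Over all 27 alternatives the change stayed past the threshold, from 3.30 to 4.13 in Veh and from 2.84 to 3.70 in 29P mice.

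The LTBPs that carry latent TGF-beta moved less. Ltbp4, on chromosome 7 from 27305136 to 27337692, was at 370 ± 61.4 in TAC Veh (SD, n = 3) and 318 ± 61.9 in TAC 29P (n = 6), beside 177 ± 57.9 in Sham Veh (n = 5) and 178 ± 63.8 in Sham 29P (n = 3). It rose by 1.12 in Veh (SE 0.26, limma adjusted p = 0.0109) and 0.88 in 29P mice (SE 0.25, adjusted p = 0.031). TAC Veh and Sham Veh libraries did not overlap, whereas 29P libraries did. Without library 14 the Ltbp4 difference in 29P mice was 0.58 (adjusted p = 0.258). Ltbp3 rose by 0.89 (adjusted p = 0.00983) and 0.81 (adjusted p = 0.0158), from 14.3 to 29.2 in Sham Veh to 38.7 to 48.4 in TAC Veh. Ltbp1, the best studied carrier of latent TGF-beta1, had log2 fold changes of −0.27 and −0.35, with 29.3 to 38.1 in TAC Veh against 37.1 to 50.4 in Sham Veh, and passed the threshold in neither treatment.

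The 3 TGF-beta ligands did not move alike in their calls. Tgfb2, on chromosome 1 from 186622792 to 186705989, was at 10.9, 13.7, 10.3, 14.9 and 12.8 in Sham Veh, 11.2, 15.3 and 11.96 in Sham 29P and 31.9, 20.03 and 35.8 in TAC Veh. TAC 29P libraries ranged from 13.5 to 35.1 with a median of 21.2. All TAC Veh libraries lay above all Sham Veh libraries, and the lowest TAC 29P library lay within the Sham 29P range.
Tgfb2 rose by 1.19 in Veh (SE 0.24, adjusted p = 0.00509, 2.28-fold) and by 0.78 in 29P mice (SE 0.24, adjusted p = 0.040, 1.71-fold). The rise in Veh mice kept its side of the threshold in 26 of 27 alternatives, the exception being without library 2 (1.10, adjusted p = 0.0507). The rise in 29P mice did so in 17 of 27, with adjusted p from 0.0043 to 0.149.

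Tgfb3, on chromosome 12 from 86056745 to 86079041 with Ttll5 on the opposite strand, was at 16.5, 13.2, 19.1, 24.0 and 25.7 in Sham Veh and 45.5, 30.5 and 46.5 in TAC Veh. It was at 18.9, 13.1 and 17.4 in Sham 29P and from 16.2 to 48.9, with a median of 36.1, in TAC 29P. The TAC 29P libraries fell on both sides of the highest Sham 29P library.
Its rise passed in Veh mice at 1.06 (SE 0.32, adjusted p = 0.0394), while in 29P mice the value was 0.94 (SE 0.31, adjusted p = 0.0557). Without library 2, the Tgfb3 difference in Veh mice was 0.97 (adjusted p = 0.186). Tgfb1, the isoform that platelets carry in quantity, lies on chromosome 7 from 25687002 to 25705077. Its levels were 19.2, 11.3, 16.4, 15.2 and 19.8 in Sham Veh, 21.7, 7.30 and 15.9 in Sham 29P, 28.9, 21.2 and 28.4 in TAC Veh and 21.6 to 29.9, with a median of 26.3, in TAC 29P. TAC Veh lay above Sham Veh throughout, and library 14 was the lowest of all libraries.
The difference passed in 29P mice at 0.93 (SE 0.25, adjusted p = 0.023) and not in Veh mice at 0.69 (SE 0.25, adjusted p = 0.0919, exact permutation p = 0.0357). Without library 14 the Tgfb1 difference in 29P mice was 0.49 (adjusted p = 0.207). None of the 3 isoforms had an interaction of surgery with treatment (unadjusted p = 0.499, 0.238 and 0.774 for Tgfb1, Tgfb2 and Tgfb3), so the different calls do not show different effects.

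Gdf15, a divergent ligand secreted under cell stress that signals through a receptor of the hindbrain, was the ligand with the largest change. It lies on chromosome 8 from 70629393 to 70632456. Normalised CPM was 0.865, 0.733, 0.496, 2.14 and 1.54 in Sham Veh, 0.567, 0.365 and 0.537 in Sham 29P and 9.05, 2.80 and 12.3 in TAC Veh. TAC 29P libraries ranged from 1.66 to 6.84 with a median of 2.54. The highest Sham Veh value came from library 19, which holds atrial transcripts, and it lay above the lowest TAC 29P libraries.
Gdf15 rose by 2.63 in Veh (SE 0.50, adjusted p = 0.0034, 6.17-fold) and by 2.38 in 29P mice (SE 0.49, adjusted p = 0.00702, 5.21-fold). The remaining ligands did not pass in either treatment. Bmp4, a BMP of the vascular wall, had 0.61 (adjusted p = 0.0607) and 0.42 (adjusted p = 0.166), and Inhbb, an activin subunit, had 0.94 (adjusted p = 0.104) and 0.54 (adjusted p = 0.315). The activin subunit Inhba was at 0.46 (adjusted p = 0.607) and 1.51 (adjusted p = 0.0597), with 24.3 in the atrial-transcript library 18 beside 4.24 to 8.51 in the other TAC 29P libraries. Without the 3 libraries that hold atrial transcripts Inhba passed in 29P mice, at 1.17 (adjusted p = 0.0398). Bmp6, Bmp2 and Mstn had differences of −0.94 to −0.10 in Veh mice, and in 29P mice Bmp2 had 0.71 (SE 0.28, unadjusted p = 0.0217, adjusted p = 0.106, exact permutation p = 0.0476) with no overlap, Bmp6 −0.20 and Mstn −0.55. Mstn was listed at 0 to 1.19 throughout.

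Of the secreted modulators Fstl1 was the most uniform. This follistatin-related glycoprotein is secreted by stromal cells and lies on chromosome 16 from 37776873 to 37836514. It was at 132, 176, 142, 215 and 156 in Sham Veh, 139, 118 and 110 in Sham 29P, 540, 293 and 533 in TAC Veh, and 225 to 495 with a median of 304 in TAC 29P. Every TAC library lay above every Sham library. The rise was 1.44 in Veh (SE 0.23, adjusted p = 0.00115, 2.71-fold) and 1.41 in 29P mice (SE 0.22, adjusted p = 0.00177, 2.65-fold), and it stayed past the threshold in all 27 alternatives of each.

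Fstl3, which binds activins and myostatin, lies on chromosome 10 from 79777272 to 79782630, with Prss57 on the opposite strand. Its levels were 3.76, 4.01, 3.18, 9.28 and 7.70 in Sham Veh, 4.44, 2.28 and 3.36 in Sham 29P, 12.3, 6.90 and 11.2 in TAC Veh and 5.29 to 10.99, with a median of 8.58, in TAC 29P. Both high Sham Veh values came from libraries 19 and 20, which hold atrial transcripts. The rise passed in 29P mice at 1.34 (SE 0.32, adjusted p = 0.0142), whereas Veh mice had 0.93 (SE 0.33, adjusted p = 0.0796) with all libraries and 1.41 (adjusted p = 0.00874) without the 3 libraries that hold atrial transcripts.
Follistatin itself, Fst, was low at 0.226 to 2.64, with differences of −0.05 and −0.38. Bmper, an extracellular BMP modulator, had −1.06 in Veh mice (SE 0.36, adjusted p = 0.0669) and −0.33 in 29P mice (adjusted p = 0.549), with 1.85 to 4.09 in TAC Veh beside 4.02 to 7.60 in Sham Veh.

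**Figure D2:**
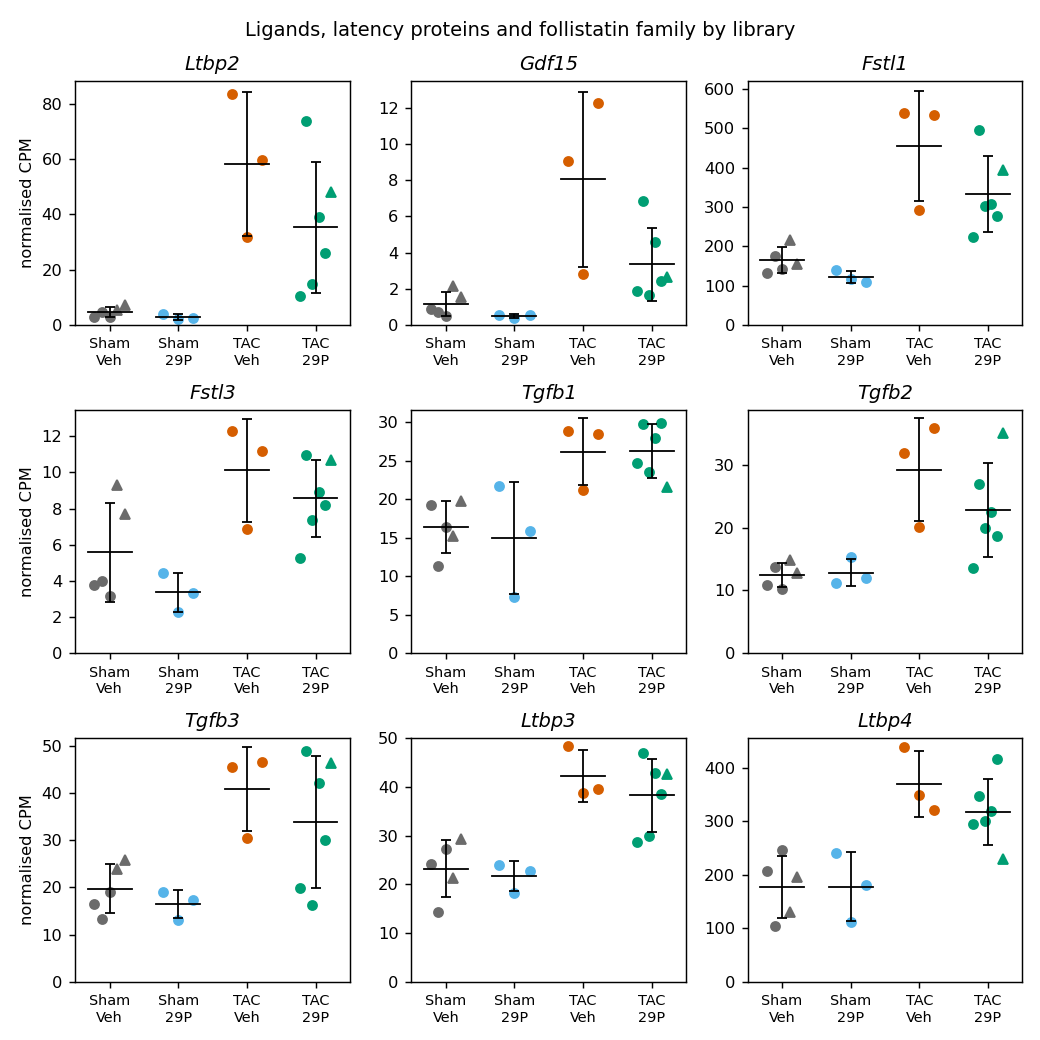
Normalised CPM of 9 ligands, latency proteins and follistatin family members in every library, by group, with the mean and SD as black lines; triangles mark the 3 libraries with atrial transcripts. Ltbp2 and Fstl1 of all 9 TAC libraries sit above all 8 Sham libraries, while Tgfb3 of 2 TAC 29P libraries sits among the Sham values.

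The receptors changed less in size. Tgfbr2, the type II receptor that binds TGF-beta first, was at 54.6 to 61.7 in Sham Veh, 51.0 to 60.1 in Sham 29P, 77.7 to 95.3 in TAC Veh and 66.8 to 86.4 in TAC 29P. The groups did not overlap by surgery, and the rise was 0.58 in Veh (SE 0.10, adjusted p = 0.00184) and 0.51 in 29P mice (SE 0.10, adjusted p = 0.00495). Acvr1, a type I receptor of BMPs, rose by 0.47 (adjusted p = 0.0175) and 0.49 (adjusted p = 0.0121), from 11.2 to 14.9 over all Sham libraries to 16.2 to 20.4 over all TAC libraries.

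Tgfbr3, or betaglycan, presents TGF-beta2 to the signalling receptors and was the 1 member called lower in 29P mice with all libraries and groups fitted. It lies on chromosome 5 from 107106570 to 107289629. Its levels were 32.5, 32.5, 44.6, 34.0 and 37.3 in Sham Veh, 38.1, 49.1 and 50.3 in Sham 29P, 33.7, 34.2 and 24.4 in TAC Veh and 28.0 to 31.6, with a median of 30.3, in TAC 29P. All TAC 29P libraries lay below all Sham 29P libraries. The fall in 29P mice was −0.59 (SE 0.13, limma adjusted p = 0.00944), and on deposited CPM it was −0.23 (adjusted p = 0.226). In Veh mice the difference was −0.24 (SE 0.13, adjusted p = 0.255), and on deposited CPM it turned to 0.084. With library 14 left out, the Tgfbr3 difference in 29P mice was −0.54 (adjusted p = 0.0663).

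Bambi, a decoy receptor without a kinase domain, was at 15.8, 17.8, 13.1, 14.2 and 10.3 in Sham Veh, 14.5, 12.6 and 8.94 in Sham 29P, 19.96, 17.8 and 16.8 in TAC Veh and 16.7 to 25.1, with a median of 22, in TAC 29P. TAC 29P and Sham 29P libraries did not overlap, while the Veh groups did. The rise was 0.87 in 29P mice (SE 0.17, adjusted p = 0.00607), and Veh mice had 0.37 (SE 0.18, adjusted p = 0.19).
Among the other 8 receptors, none passed. Their log2 fold changes lay between −0.15 and 0.45 in Veh and between −0.43 and 0.48 in 29P mice, and they included the type I receptor Tgfbr1 (0.45 and 0.13), the endothelial pair Acvrl1 (0.41 and 0.34) and Eng (0.22 and 0.48), and the BMP receptors Bmpr1a (−0.14 and −0.29) and Bmpr2 (0.00044 and −0.43).

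Downstream of the receptors, SMAD transcripts were near their Sham levels. Smad1, a BMP-branch SMAD, was the 1 signal-transducing SMAD past the threshold, at 0.47 in Veh mice (SE 0.15, adjusted p = 0.0478), with 18.8, 19.6 and 29.8 in TAC Veh beside 14.1 to 18.4 in Sham Veh, and the highest value was library 16. This Smad1 call was lost without the 3 libraries that hold atrial transcripts (0.44, adjusted p = 0.137), with the ranges of animal numbers fitted (0.38, adjusted p = 0.172), with no filter, with only the groups compared, and with any 1 of libraries 1, 2, 3, 5, 6, 8, 9, 11, 16, 19 or 20 left out. In 29P mice its difference was 0.37 (SE 0.14, adjusted p = 0.093). Smad2, Smad3, Smad4 and Smad5 had differences between −0.08 and 0.10 over both treatments. Transcript levels do not measure SMAD phosphorylation, through which the pathway acts.
Of the intracellular inhibitors, the corepressor Ski rose by 0.46 in Veh mice (SE 0.13, adjusted p = 0.0337) and the ubiquitin ligase Smurf1 by 0.61 (SE 0.13, adjusted p = 0.00774). In 29P mice their values were 0.32 (adjusted p = 0.104) and 0.35 (adjusted p = 0.0853). The inhibitory SMADs Smad6 and Smad7, both induced by the pathway itself in other settings, had 0.08 and 0.13 in Veh and 0.06 and 0.05 in 29P mice, with Smad7 at 18.02 to 19.5 in TAC Veh beside 11.2 to 24.6 in Sham Veh.

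The 4 targets among the members gave 1 call within a treatment with all libraries. Id3 rose by 0.60 in 29P mice (SE 0.18, adjusted p = 0.0405), with 41.0 to 60.8 in TAC 29P beside 24.0 to 42.6 in Sham 29P, where library 14 was the lowest. This Id3 call was lost with only the groups compared and with the ranges of animal numbers fitted. It was also lost with any 1 of libraries 3, 9, 11, 14 or 15 left out. In Veh mice Id3 had 0.31 (adjusted p = 0.302). Id1 had −0.16 and 0.24 and Id2 had −0.23 and 0.12. Tgfbi, a matrix protein named for its induction by TGF-beta, had 0.61 (adjusted p = 0.129) and 0.66 (adjusted p = 0.0867), with 34.7 to 35.9 in TAC Veh beside 13.3 to 35.7 in Sham Veh. The highest Sham Veh values of Tgfbi, 35.7 and 29.4, came from libraries 19 and 20, and Tgfbi passed in Veh mice without the libraries that hold atrial transcripts (0.94, adjusted p = 0.0178) and with the ranges of animal numbers fitted (0.82, adjusted p = 0.0298).

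Upstream sequence of the raised members was read from the RefSeq promoter table of GRCm38.p6, which matched 34 of the 45 members. Of the 8 members raised in both treatments, 4 had 250 bases before a start that touch no annotated exon, and these are printed 5′ to 3′ because the members rose together. Capitals mark CAGAC, the SMAD box (GTCTG on the other strand), and GGCGCC, a GC-rich SMAD motif that reads the same on both strands. The stretches lie at chr8:70632457-70632706 (minus strand) for Gdf15, chr19:5740650-5740899 (plus strand) for Ltbp3, chr7:27333664-27333913 (minus strand) for Ltbp4, and chr9:116175364-116175613 (minus strand) for Tgfbr2. The Ltbp4 stretch lies inside the annotated gene, before a start other than the outermost.
Gdf15: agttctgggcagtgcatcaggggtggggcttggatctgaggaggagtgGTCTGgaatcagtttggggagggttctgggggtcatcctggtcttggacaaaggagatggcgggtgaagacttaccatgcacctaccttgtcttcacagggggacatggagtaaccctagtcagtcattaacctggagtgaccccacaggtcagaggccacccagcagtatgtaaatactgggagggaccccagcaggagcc
Ltbp3: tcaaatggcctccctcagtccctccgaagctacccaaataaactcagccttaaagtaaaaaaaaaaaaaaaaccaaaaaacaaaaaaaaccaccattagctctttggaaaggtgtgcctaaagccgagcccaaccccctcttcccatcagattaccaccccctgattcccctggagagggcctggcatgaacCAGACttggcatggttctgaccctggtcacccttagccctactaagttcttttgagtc
Ltbp4: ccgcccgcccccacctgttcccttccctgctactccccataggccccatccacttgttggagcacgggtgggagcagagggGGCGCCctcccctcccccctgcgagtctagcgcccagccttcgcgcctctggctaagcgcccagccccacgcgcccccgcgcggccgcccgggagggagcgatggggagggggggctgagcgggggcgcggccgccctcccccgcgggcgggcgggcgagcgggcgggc
Tgfbr2: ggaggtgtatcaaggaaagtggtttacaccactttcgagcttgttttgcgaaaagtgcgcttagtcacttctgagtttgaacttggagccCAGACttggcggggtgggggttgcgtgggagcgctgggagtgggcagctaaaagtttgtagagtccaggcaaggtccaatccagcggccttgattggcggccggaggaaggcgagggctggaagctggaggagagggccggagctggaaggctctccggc
CAGAC or its complement occurred once each in the printed Gdf15, Ltbp3 and Tgfbr2 stretches, and GGCGCC occurred once in the printed Ltbp4 stretch. The exon-free 170 bases before the outermost Ltbp4 start held neither motif. A second Gdf15 stretch, of 54 exon-free bases, held neither as well. Over all 32851 promoters of the table, 42.2% held CAGAC on either strand in the 250 bases before the start, and 48.8% of the 41 promoters of members did. GGCGCC was held by 9.6% of all promoters and by 24.4% of those of members. The 41 promoters belong to 34 members and are not independent, since overlapping stretches of Ltbp4 each count for GGCGCC. These matches describe letters and were not tested for binding.

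Genes around the pathway were taken from lists of other components. Of 22 genes that store or release latent TGF-beta, 5 were higher and 1 was lower in Veh mice, and 7 were higher and 1 lower in 29P mice. Fbn1, the fibrillin that anchors LTBPs, went from 81.6 ± 19.4 in Sham Veh to 254 ± 90.8 in TAC Veh (log2 fold change 1.60, adjusted p = 0.00152). The proteoglycan Bgn went from 205 ± 33.0 to 582 ± 132 (1.49, adjusted p = 0.000522) and Emilin1 from 19.9 ± 4.83 to 49.0 ± 16.7 (1.28, adjusted p = 0.0035). Itgb3, which encodes the beta3 chain targeted by 29P, was at 3.51 ± 1.31 in Sham Veh, 2.58 ± 1.45 in Sham 29P, 4.63 ± 1.85 in TAC Veh and 4.70 ± 2.19 in TAC 29P, with TAC differences of 0.40 in Veh mice (adjusted p = 0.575) and 0.94 in 29P mice (SE 0.41, unadjusted p = 0.0332, adjusted p = 0.136).
Other ligands (10 tested) gave 2 calls in each treatment, both higher, Bmp1 and Gdf6. Bmp1, a procollagen protease that shares only its name with the ligands, rose by 0.87 in Veh mice (adjusted p = 0.00355), and Gdf6 rose by 2.52 (adjusted p = 0.00211) from 1.05 ± 0.351 to 7.45 ± 4.94. The TGF-beta coreceptor Cd109 rose by 1.26 (adjusted p = 0.00146), the 1 higher call among 5 other receptors, and of 10 other antagonists Wfikkn2, which binds myostatin, had −0.68 in Veh mice (adjusted p = 0.0121), the 1 lower call, while Nbl1 was the 1 higher call in 29P mice. Of 21 other intracellular regulators, 1 was higher in Veh and 3 in 29P mice, and Pmepa1, a feedback inhibitor of the TGF-beta branch, was among them in both (0.90 in Veh mice, adjusted p = 0.023).

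Textbook targets were counted for each branch. Among 21 TGF-beta targets 10 were higher in Veh and 9 in 29P mice and 0 were lower, with median log2 fold changes of 1.35 and 1.2 beside 0.015 and 0.011 over all genes. Postn, which encodes the matricellular protein periostin, rose from 82.3 ± 24.7 to 739 ± 317 in Veh mice (3.10, adjusted p = 0.000418), Cthrc1 from 0.237 ± 0.190 to 3.20 ± 1.35 (3.40, adjusted p = 0.0184) and the collagen cross-linking enzyme Lox from 7.63 ± 2.98 to 30.2 ± 16.5 (1.85, adjusted p = 0.0426). Of 6 BMP targets 0 passed in Veh mice (limma, 0 also at an unadjusted p of 0.05), and 1, Msx1, was higher in 29P mice. The difference between the branches was not tested, and the TGF-beta list holds collagens that also mark fibroblasts.

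Markers of cell types moved alongside. Of 8 fibroblast markers 2 were higher in Veh (Col1a1 and Col1a2) and 3 in 29P mice (the same and Lum). The sum of the 8 was 1439 to 2489 in Sham Veh, 1380 to 1723 in Sham 29P, 2217 to 2624 in TAC Veh and 1657 to 3042 in TAC 29P. The highest Sham Veh sums, 2410 and 2489, and the highest TAC 29P sum came from libraries 19, 20 and 18, which hold atrial transcripts. Of 8 macrophage markers 2 and 6 were higher, with sums of 322 to 396, 259 to 417, 423 to 602 and 422 to 509 in the same order. Of 8 cardiomyocyte markers 4 and 3 were lower, with sums of 54701 to 58968, 52099 to 67545, 35635 to 44314 and 38041 to 49918. Of 8 endothelial markers 0 passed in either treatment (limma, 1 and 4 at an unadjusted p of 0.05). Of 5 red blood cell markers 0 passed in either treatment (limma), with 5 at an unadjusted p of 0.05 in Veh mice (median 0.97) and 0 in 29P mice (median 0.24). Smooth muscle and pericyte markers (8 tested) gave 1 higher call in Veh mice and 1 higher and 1 lower in 29P mice. No marker of these 6 lists was at 0 in any library. The part of cell composition in the members' differences was not tested.

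The question of whether 29P altered the pathway was addressed within TAC and within Sham mice. Within TAC, 0 of 45 members and 0% of 16174 genes passed adjustment (limma), while an unadjusted p up to 0.05 was reached by 2 members and 2.46% of genes. Within Sham 0 members and 0% of genes passed adjustment, and 3 members and 7.82% of genes reached an unadjusted p of 0.05. For the interaction of surgery with treatment 0 members and 0% of genes passed, with 0 members and 3.52% of genes at an unadjusted p of 0.05. The members' adjusted p was 1 for every difference named within TAC, 0.627 or more within Sham and 0.993 or more for the interaction.

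The intervals show what sizes remained possible. For Tgfb1 the 29P difference within TAC was 0.0077 with a 95% interval of −0.51 to 0.52, for Tgfb2 −0.38 (−0.87 to 0.11) and for Tgfb3 −0.36 (−1.005 to 0.28). Ltbp2 had −0.91 (−1.94 to 0.11) and Fstl1 −0.44 (−0.91 to 0.025), with an unadjusted p of 0.0622 for Fstl1. Means of Fstl1 were 455 ± 141 in TAC Veh (n = 3) and 333 ± 96.2 in TAC 29P (n = 6), and the groups overlapped. With single libraries left out the Fstl1 difference ranged from −0.73 without library 12, the lowest TAC Veh value (unadjusted p = 0.00452), to −0.29 without library 2 (TAC Veh, unadjusted p = 0.267). For the SMADs the intervals were narrower, −0.28 to 0.19 for Smad2, −0.12 to 0.57 for Smad3 and −0.26 to 0.21 for Smad4.

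**Figure D3:**
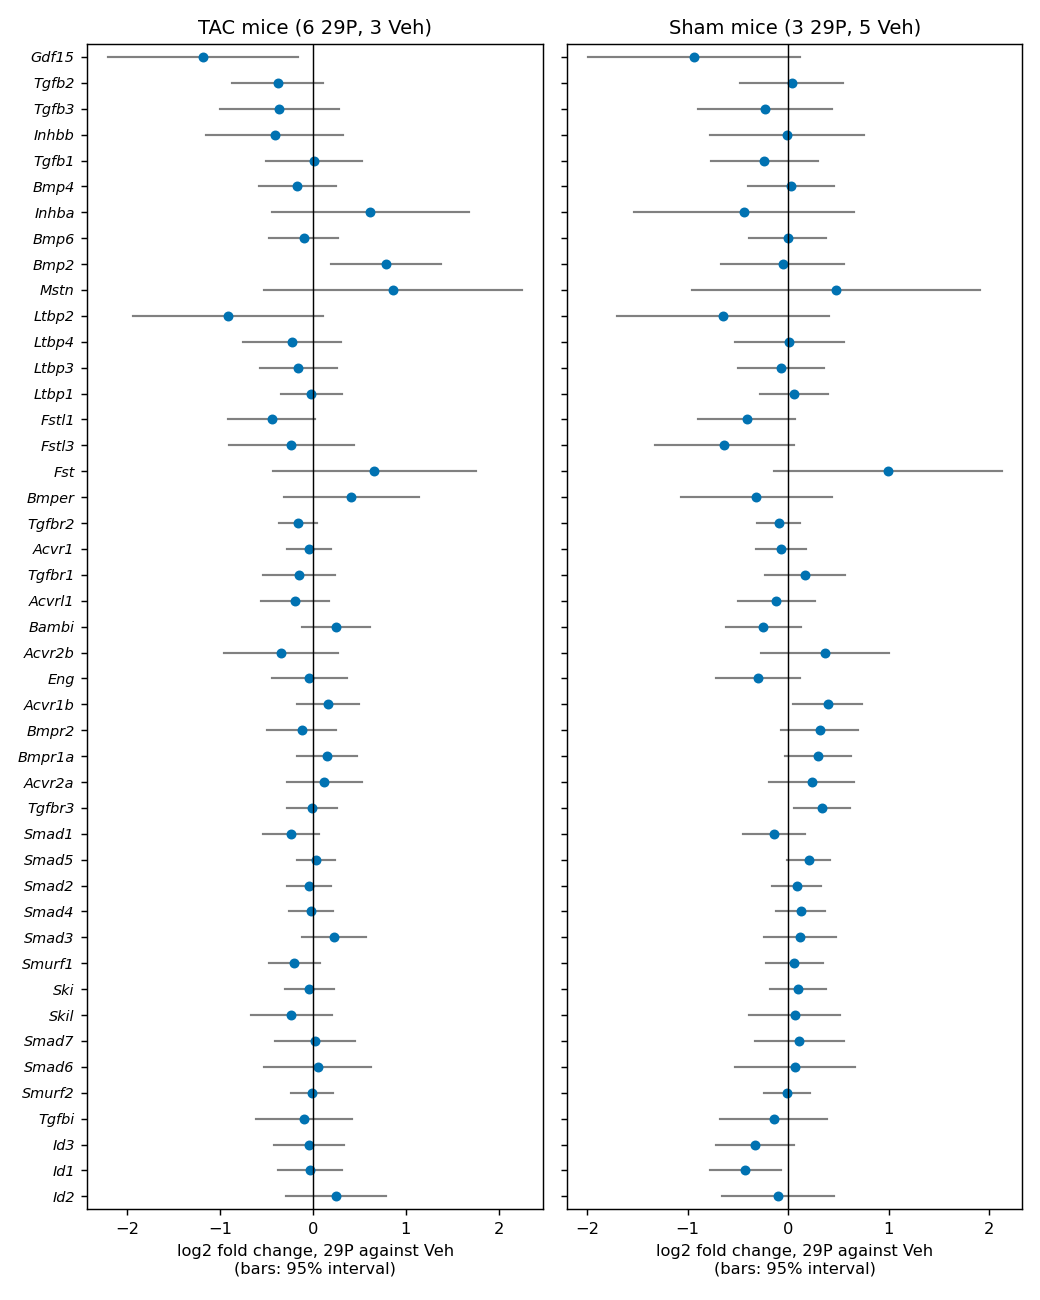
Log2 fold change of 29P against Veh for the 45 members within TAC mice (left, 6 against 3 libraries) and within Sham mice (right, 3 against 5 libraries), with bars for the 95% interval. Within TAC the intervals of Bmp2 (0.195 to 1.38) and Gdf15 (−2.21 to −0.16) leave out 0 before adjustment over genes.

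Bmp2, a ligand of the BMP branch, had the smallest limma p of the members within TAC. It lies on chromosome 2 from 133552159 to 133562885. Its normalised CPM was 1.36, 1.202 and 1.22 in TAC Veh and 1.53 to 4.44, with a median of 2.03, in TAC 29P, beside 1.38, 1.52, 0.892, 1.92 and 1.44 in Sham Veh and 1.32, 1.28 and 1.41 in Sham 29P. All 6 TAC 29P libraries lay above the 3 TAC Veh libraries, and the highest was library 18, which holds atrial transcripts.
The difference was 0.79 (SE 0.28, limma unadjusted p = 0.012, adjusted p = 1, exact permutation p = 0.0476). Without library 18 it was 0.60 (unadjusted p = 0.0233), and with the ranges of animal numbers fitted 0.57 (unadjusted p = 0.0636). The interaction for Bmp2 was 0.84 (SE 0.41, unadjusted p = 0.052), and over the alternatives it ranged from 0.30 with the ranges of animal numbers fitted (unadjusted p = 0.517) to 0.99 without library 13 (Sham Veh, unadjusted p = 0.0219). It was 0.49 (unadjusted p = 0.179) without the 3 libraries that hold atrial transcripts. By the exact permutation test Smurf1 had the smallest p of the members within TAC (0.0357). Its difference was −0.20 (limma unadjusted p = 0.138), and the groups overlapped.

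Gdf15 had the next smallest limma p within TAC. Of the 6 TAC 29P libraries 4 lay below the lowest TAC Veh library, and the groups overlapped. The difference was −1.19 (SE 0.49, unadjusted p = 0.0252, adjusted p = 1, exact permutation p = 0.0952). Without library 16 (TAC Veh) it was −0.76 (unadjusted p = 0.178), and without library 12 it was −1.81 (unadjusted p = 0.00192). Within Sham mice Gdf15 had −0.94 (unadjusted p = 0.0771), and the interaction was −0.24 (unadjusted p = 0.731).

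Within Sham mice Tgfbr3 was 0.34 higher in 29P than in Veh libraries (SE 0.13, unadjusted p = 0.0195, exact permutation p = 0.0536), and without library 15 (Sham 29P) it was 0.27 (unadjusted p = 0.0959). Id1 was at 39.1, 49.3, 56.9, 48.3 and 66.6 in Sham Veh and 47.2, 29.3 and 39.6 in Sham 29P, a difference of −0.43 (SE 0.17, unadjusted p = 0.0198, exact permutation p = 0.107). Library 14 was the lowest for Id1, and without it the difference was −0.24 (unadjusted p = 0.178). Acvr1b, a type I receptor of activins, was at 19.6, 12.8, 14.3, 10.9 and 13.3 in Sham Veh and 17.4, 20.7 and 17 in Sham 29P, a difference of 0.39 (SE 0.16, unadjusted p = 0.0274, exact permutation p = 0.107). Without library 14 the Acvr1b difference was 0.30 (unadjusted p = 0.118).
For the interaction, the smallest values after Bmp2 were Bambi at 0.50 (SE 0.25, unadjusted p = 0.0608) and Tgfbr3 at −0.35 (SE 0.18, unadjusted p = 0.0732). Over the alternatives the Bambi interaction ranged from 0.19 with the ranges of animal numbers fitted (unadjusted p = 0.541) to 0.65 without library 4 (Sham 29P, unadjusted p = 0.0218), and that of Tgfbr3 from −0.51 to −0.24. Bambi had a mean of 21.8 ± 2.99 in TAC 29P (n = 6) and 18.2 ± 1.60 in TAC Veh (n = 3), with overlap, and 12.01 ± 2.83 in Sham 29P (n = 3) and 14.2 ± 2.84 in Sham Veh (n = 5).
Among the other lists 4 genes had an unadjusted p under 0.05 within TAC, each with an adjusted p of 1. They were Wfikkn2 (0.53, limma unadjusted p = 0.00321), Gdf6 (−1.05, unadjusted p = 0.0262), Bgn (−0.46, unadjusted p = 0.0328) and Postn (−0.91, unadjusted p = 0.0349). The lists had 10 other ligands, 5 other receptors, 10 other antagonists and 22 genes of latent TGF-beta tested. They also had 21 other intracellular regulators, 21 TGF-beta targets and 6 BMP targets. Over all 16174 genes 2.46% reached an unadjusted p of 0.05 within TAC. Red blood cell markers moved within TAC as well, since 5 of 5 had an unadjusted p under 0.05 with a median difference of −1.09 between 29P and Veh, and their part in these values was not tested.

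**Figure D4:**
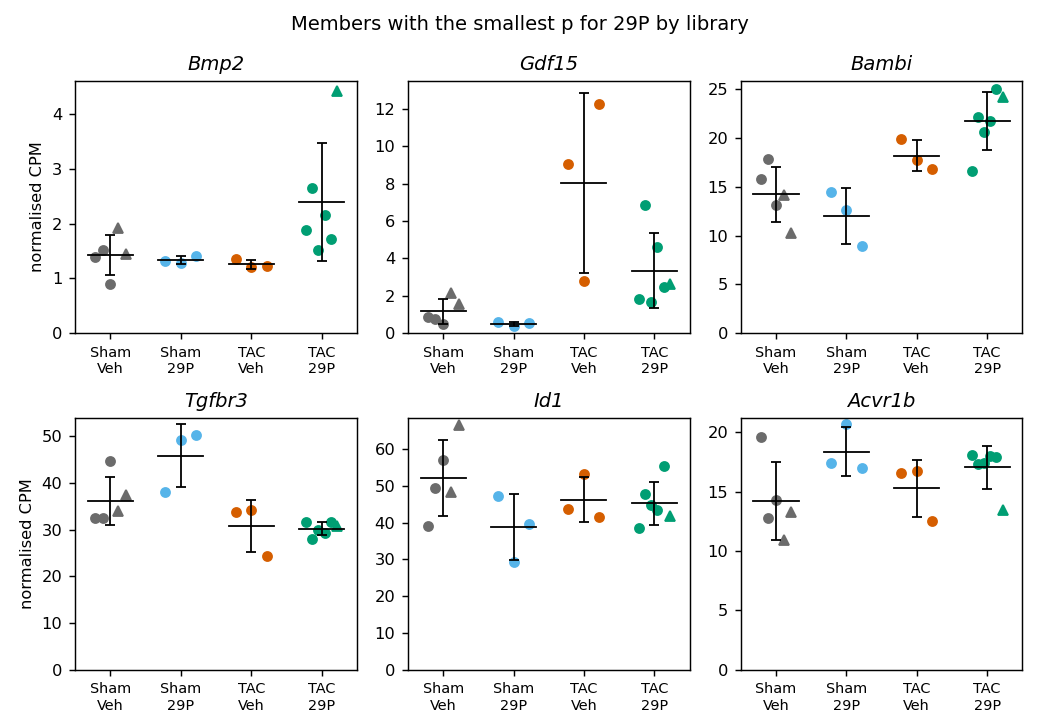
Normalised CPM of 6 of the members with the smallest limma p for 29P or the interaction in every library, by group, with the mean and SD as black lines. Triangles mark the 3 libraries with atrial transcripts. Bmp2 is at 1.202 to 1.36 in TAC Veh and at 1.53 to 4.44 in TAC 29P, and the Gdf15 values of the TAC groups overlap.

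TAC libraries differed widely among themselves in Ltbp2, and several members varied with it. Over the 8 TAC libraries without atrial transcripts (3 TAC Veh and 5 TAC 29P), log2 normalised CPM was compared between Ltbp2 and the 15 other members past the threshold upwards in at least 1 treatment. Tgfbr2 had Pearson r = 0.968 and Spearman rho = 0.976 (permutation p adjusted over the 15 relations = 0.000744 and 0.00298). Also past 0.01 in the adjusted permutation p of r were Ltbp3 (r = 0.95, rho = 0.976), Tgfb3 (0.939, 0.905), Fstl3 (0.934, 0.905), Gdf15 (0.912, 0.905), Fstl1 (0.899, 0.905) and Tgfb2 (0.897, 0.905). With the libraries farthest from the median of Ltbp2 left out (1 and 8, both TAC 29P), r for these 7 members was 0.825 to 0.952 over 6 libraries.

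The relation was weaker for other members. Acvr1 had r = 0.763 (adjusted p = 0.0412, permutation), Tgfb1 r = 0.574 (adjusted p = 0.202), Ltbp4 r = 0.549 (adjusted p = 0.215) and Bambi r = 0.178 (adjusted p = 0.665). Id3, Ski, Smad1 and Smurf1 had r of 0.406 to 0.691 and did not pass.
Of 16173 genes tested, 1.23% reached r of 0.9 or more with Ltbp2 and 1.37% reached −0.9 or less, beside 6 of 44 members at 0.9 or more. Other measures of the same libraries varied with Ltbp2 as well, the summed fibroblast markers at r = 0.947, the atrial cardiomyocyte list, in which Nppa had the highest levels, at 0.912, macrophage markers at 0.839, cardiomyocyte markers at −0.9, estimated depth at −0.691 and the mitochondrial-encoded share at −0.792, and their part was not tested. Both treatments are pooled in these values, and neither group alone has the 6 libraries needed.

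**Figure D5:**
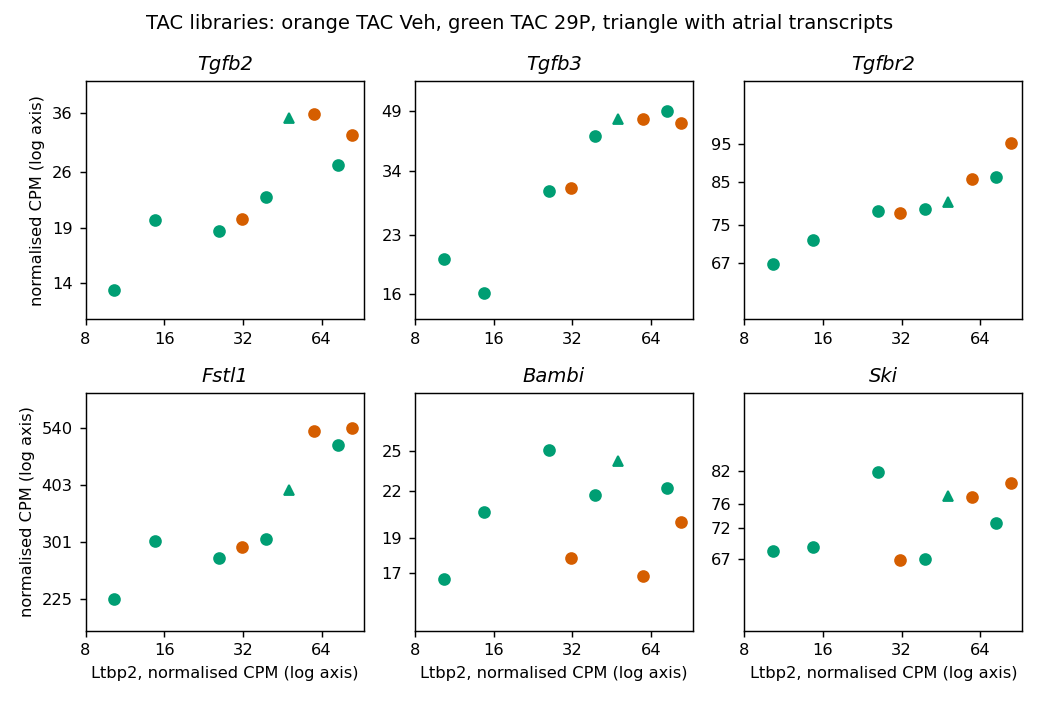
Normalised CPM of 6 members against Ltbp2 in the 9 TAC libraries on log axes, with TAC Veh in orange, TAC 29P in green and the library with atrial transcripts as a triangle. Tgfb2, Tgfb3, Tgfbr2 and Fstl1 are high where Ltbp2 is high, and Bambi (r = 0.178 without the triangle) and Ski are not ordered with it.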

How the data were processed

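RNA-seq was analysed from the left ventricular apex of 17 mice (NEBNext Ultra II kit, polyadenylated RNA). Per the submitters' processing notes, the tools were Partek and STAR 2.3.7 and the build mm10. The authors deposited CPM plus 0.0001 for 21798 genes. The gene counter and its strand setting are not given in the sources used here, so reads of genes overlapping on opposite strands cannot be told apart. Whole reads could not be recovered (84.0 to 86.7% of low values were whole within 0.1 read), so no count model was used. CPM were divided by median-of-ratios factors, log2-transformed with 0.1 added, filtered at 0.5 in at least 3 libraries and tested with limma 3.58.1 in R 4.3.3 (1 mean per group, trended variance, Benjamini-Hochberg adjustment over all genes, threshold 0.05). Single genes also had exact two-sided permutation tests over libraries. The procedure was tested on simulated data. Each library is 1 mouse. Members were named in full where they were among the 8 largest rises or falls past the threshold after TAC, among the 3 smallest unadjusted p for each 29P comparison, or were Tgfb1, Tgfb2 or Tgfb3, and the other members by role. Up to 3 genes per other list were named by the size of a called change in Veh mice, with Itgb3. The members and gene lists were chosen with earlier results of these data known. Alternatives changed the scaling, constant, filter, covariates and libraries. Estimated depth limits precision for low genes.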

Additional observations from a re-analysis of the deposited data

Results flagged for a closer look

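Acvr1b, which encodes a type I receptor of activins, had 1 library far from the others of its group. In TAC 29P mice library 18 was at 13.4 normalised CPM, beside 17.3 for the nearest of the other 5 libraries and 18.1 at the other end of the range. Library 18 is the TAC 29P library that holds atrial transcripts. In all 26 groups of values were examined in this way, and chance alone marks about 1 in 20.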

How the results depend on the processing

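Of 780 values of single members under alternative settings 691 kept their direction and their side of the threshold, 53 no longer passed, 35 newly passed and 1 reversed, Tgfbr3 in Veh mice, at 0.084 on deposited CPM. For surgery differences the threshold here was an adjusted p of 0.05. For 29P differences and interactions it was an unadjusted p of 0.05, and none of these passed adjustment in any setting. Members higher after TAC numbered 25 in Veh and 25 in 29P mice on deposited CPM, beside 3827 and 5110 of 16218 genes. With totals without mitochondrial-encoded and haemoglobin genes they numbered 20 in 29P mice, beside 2093 of 16215 genes. With ranges of animal numbers fitted as a covariate they numbered 3 in 29P mice, beside 163 of 16174 genes. At an unadjusted p of 0.05 (limma) they numbered 19 and 21. In either direction 20 and 24 of 45 members reached that p, beside 4330 and 4680 of 16174 genes. Members lower in Veh mice numbered 1 with only the groups compared, beside 663 of 16174 genes, and 1 at an unadjusted p of 0.05. In 29P mice 0 were lower on deposited CPM, 0 with the ranges fitted, 3 without libraries with atrial transcripts (Bmpr2, Ltbp1 and Tgfbr3) and 3 at an unadjusted p of 0.05. Without libraries with atrial transcripts 1020 of 16174 genes were lower in 29P mice. An unadjusted p of 0.05 gave 2 members for 29P within TAC and 3 within Sham. Members without overlap between TAC and Sham numbered 17 on deposited CPM, 9 with totals without mitochondrial-encoded and haemoglobin genes and 9 without libraries with atrial transcripts. The share of all genes without overlap was counted only on the main scale with all libraries (1.72% higher and 2.47% lower). How far these counts exceed all genes in the other settings is therefore not known. With 1 library left out, members higher ranged from 4 to 13 in Veh and from 4 to 15 in 29P mice, members lower from 0 to 1 and from 0 to 3, and members without overlap from 5 to 7. Over all 16174 genes, higher calls then ranged from 157 to 1029 in Veh and from 165 to 1960 in 29P mice. The cause of these shifts was not tested. No paired analysis was possible because the groups share no animal numbers in the labels. Depth, estimated from low values, limits low members such as Mstn and Fst.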
